A study of Rattus norvegicus with 19 samples.

Results

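Mbp, Pmp22, Mag, Pllp, Mal, Fa2h, Bcas1 and Prx, 8 genes of the peripheral myelin sheath, were followed in single dorsal root ganglia of adult female Sprague-Dawley rats. They were taken by the gene symbols of the array annotation, and every probe set that carried such a symbol alone was used. All 8 genes were found, with 11 of the 31042 probe sets tested, among 14217 genes with a symbol. The samples were T11 ganglia of 5 naive rats without surgery, of 7 rats 7 days after surgery and of 7 rats 14 days after surgery, 1 ganglion and 1 array per rat. Surgery was a one-sided cut of the dorsal and lateral cutaneous nerves of T9, T10, T12 and T13, which leaves the T11 nerves whole inside denervated skin. This spared dermatome model makes T11 sensory axons sprout collaterals into the neighbouring skin. By its design the nerves of the ganglia measured are not cut. Whether T11 axons were injured in single rats was not tested here. The labels name no sham-operated rats, so the surgery itself and the denervation cannot be told apart. The question asked of the 8 genes was whether they stood lower at day 7 and back at the naive level by day 14.

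In a peripheral ganglion, myelin is made by Schwann cells that wrap the larger axons and the initial stretch of many sensory axons. Compact myelin is membrane held together by proteins such as Mbp and Pmp22 and rich in galactolipids that carry hydroxylated fatty acids. The inner wrap holds the adhesion protein Mag against the axon, and the outer membrane is tied to the basal lamina through a complex that includes Prx. After a nerve is cut, Schwann cells beyond the cut shut down these genes, which is why the set is a common readout of Schwann cell state.

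In day 7 ganglia all 8 genes had a lower mean than in naive ganglia, with log2 differences of -0.51 to -0.07 and a median of -0.36, against -0.003 over all 14217 genes. At day 14 all 8 means lay above those of day 7, with a median difference of 0.29 against 0.004 over all genes. Against naive ganglia the day 14 means lay on both sides, 5 higher and 3 lower, with a median of 0.03. No member passed an adjusted p of 0.05 in any comparison (limma, Benjamini-Hochberg over all probe sets), so the pattern of the set is a description of these 19 rats. At day 14 the members stood on different sides of naive: Pllp, Mal, Mbp, Pmp22 and Prx had day 14 means above the naive mean, while Mag, Bcas1 and Fa2h had means between the day 7 and the naive mean.

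**Figure D1:**
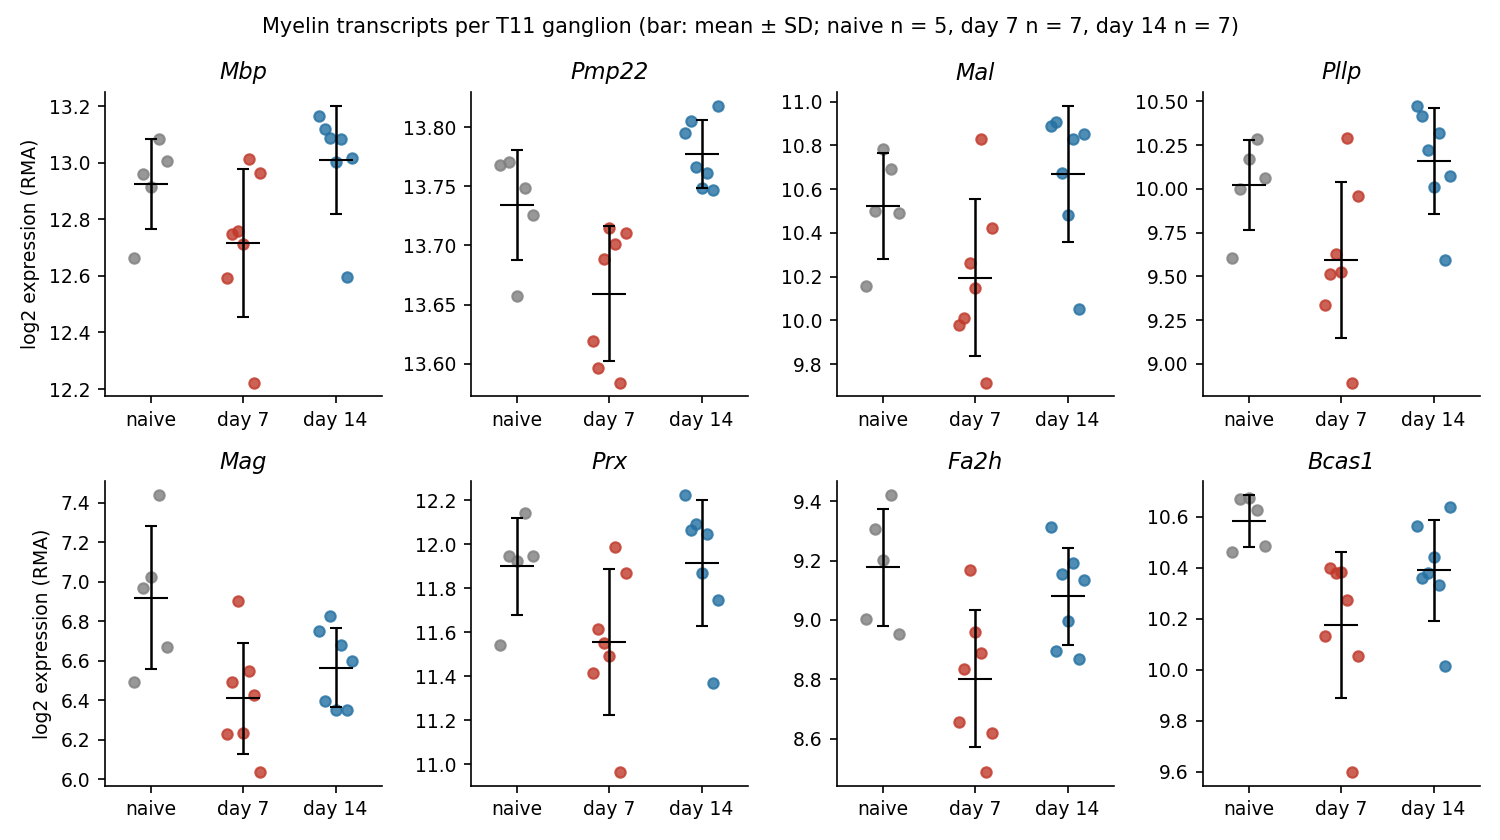
Log2 expression (RMA, vertical axis) of the 8 myelin genes in every T11 ganglion, with naive, day 7 and day 14 from left to right. Each point is 1 rat, and bars are the mean ± SD of 5 naive, 7 day 7 and 7 day 14 rats. Day 7 points sit lowest in every panel on average, and in the Bcas1 panel all 7 of them lie below all 5 naive points.

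The arrays correlated with each other at 0.987 to 0.997 over all probe sets and none held the values of another. Arrays carry no read depth, so the number of rats limits the precision, and the file has no call of presence or absence. Sensory neuron markers, 10 of 10 measured, had a mean level of 12.5 to 12.7 (log2) in every ganglion, with group means of 12.60 in naive, 12.60 in day 7 and 12.62 in day 14 ganglia. The neurofilament genes Nefl and Nefh lay at -0.07 and -0.05 for day 7 against naive. Of the 10 neuron markers 5 had a higher mean at day 7 than naive and 5 a lower mean, with a median of -0.01. Oligodendrocytes, the myelin cells of the brain and spinal cord, were checked because a piece of dorsal root entry zone could bring central myelin along. The mean of their 7 markers was 5.38 to 5.65 (log2) on every array, on a scale whose lowest value was 3.48. Over all arrays the means were 4.65 for Mobp, 4.84 for Opalin, 4.88 for Mog, 5.27 for Olig2, 5.37 for Ermn, 6.31 for Hapln2 and 7.40 for Myrf. At day 7 against naive 5 of the 7 had a higher mean and 2 a lower mean, with 0 past an unadjusted p of 0.05. In tissue measured whole, fewer myelinating Schwann cells and less RNA per cell cannot be told apart.

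Promoters were in the RefSeq table (GRCr8) for 7 of the 8 genes, Bcas1 being the exception, with 8 promoters because Mbp had 2. Each covers 250 bases before and 50 after the start and was searched on both strands for the SOX cores ACAAAG and ACAATG, the letters GCGNGGGCG of an EGR site and the letters TCACNCCAC of a sterol element. No motif overlapped another. Sox10 and Egr2 are the main transcription factors of Schwann cell myelination, and their motifs were searched for that reason. ACAAAG stood in 2 of the 8 promoters, those of Mag and Mbp, and in 18.8% of 33469 promoters in the table. ACAATG stood in 1 of 8, that of Mbp, and in 13.2% of all. The EGR letters were in 0 of 8 and in 4.98% of all, and the sterol letters in 0 of 8 and in 1.12% of all. Shown are the 2 promoters with a match and, for comparison, that of Pllp, the gene with the largest log2 difference between day 14 and day 7, which held none. Matches are in capitals, CTTTGT and CATTGT being the cores read on the opposite strand. The Mag window is chr1:95290995-95291294 on the minus strand with a match at base -152 from the start. The Mbp window is chr18:78209995-78210294 on the plus strand with matches at -240, -197 and -162, and that of Pllp is chr19:10320830-10321129 on the plus strand.
Mag: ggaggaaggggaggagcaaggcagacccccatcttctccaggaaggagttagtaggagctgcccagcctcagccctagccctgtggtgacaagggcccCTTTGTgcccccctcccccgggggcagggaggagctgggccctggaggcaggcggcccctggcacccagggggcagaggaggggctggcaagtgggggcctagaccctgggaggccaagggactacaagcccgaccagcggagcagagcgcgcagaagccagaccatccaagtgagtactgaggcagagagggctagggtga
Mbp: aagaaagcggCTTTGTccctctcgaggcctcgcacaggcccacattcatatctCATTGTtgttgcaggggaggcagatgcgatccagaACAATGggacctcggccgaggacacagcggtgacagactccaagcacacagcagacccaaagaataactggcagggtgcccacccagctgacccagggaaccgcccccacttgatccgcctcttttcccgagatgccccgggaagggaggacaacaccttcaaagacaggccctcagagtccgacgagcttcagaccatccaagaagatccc
Pllp: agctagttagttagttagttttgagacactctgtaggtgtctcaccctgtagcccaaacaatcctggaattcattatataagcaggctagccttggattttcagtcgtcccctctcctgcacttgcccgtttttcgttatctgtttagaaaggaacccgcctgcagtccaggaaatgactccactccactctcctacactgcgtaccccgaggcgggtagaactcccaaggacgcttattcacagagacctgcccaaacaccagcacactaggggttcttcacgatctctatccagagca
A match gives letters in a window, not a bound site, and a window without one says nothing of the factor.

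Mbp, myelin basic protein, sits on the inner face of the membrane and seals the layers of compact myelin. Its brightest probe set, 1368810_a_at, read 12.66, 12.96, 12.91, 13.08 and 13.01 (log2) in the naive ganglia. In day 7 ganglia it lay between 12.22 and 13.02, with a median of 12.75, and in day 14 ganglia between 12.60 and 13.17, with a median of 13.08. The groups overlapped: 2 of 7 day 7 arrays were below the lowest naive array, and 3 of 7 day 14 arrays were above the highest. The log2 difference of day 7 against naive was -0.21 (95% interval -0.45 to 0.03, adjusted p = 0.635), and that of day 14 against day 7 was 0.29 (0.07 to 0.52, adjusted p = 0.357). Day 14 differed from naive by 0.09 (-0.16 to 0.33, adjusted p = 0.708).

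The other Mbp probe sets differed from each other in the return. Probe set 1387341_a_at lay at -0.12 against naive at day 7 and at 0.06 at day 14 (adjusted p = 0.700 and 0.667). Probe set 1383479_at lay at -0.23 against naive at day 7 and at -0.25 at day 14 (adjusted p = 0.765 and 0.447), and its day 14 minus day 7 difference was -0.02 (-0.36 to 0.32). Its day 7 values ran from 7.88 to 9.12, so neither a dip nor a return stood out from its spread.

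Pmp22, a membrane protein of compact myelin whose gene dose is known to matter for human neuropathy, had 2 probe sets. The brighter, 1370247_a_at, read 13.77, 13.77, 13.66, 13.75 and 13.73 in naive ganglia, 13.58 to 13.71 at day 7 with a median of 13.69, and 13.75 to 13.82 at day 14 with a median of 13.77. All 7 day 14 arrays were above all 7 day 7 arrays, a separation that 0.0703% of all genes showed in this direction. The size was small: 0.12 for day 14 against day 7 (0.04 to 0.20, adjusted p = 0.324), a fold of 1.09. Against naive the differences were -0.07 at day 7 and 0.04 at day 14 (adjusted p = 0.640 and 0.577). These values lie near the top of the array's range, where the highest value of any probe set was 14.02. The day 7 and day 14 arrays overlapped at the other probe set, 1370504_a_at, with differences of -0.15 for day 7 against naive and 0.29 for day 14 against day 7 (adjusted p = 0.805 and 0.410).

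Mal and Pllp (plasmolipin) are small membrane proteins of the same fold family that travel with lipid rafts to the myelin membrane. Mal, probe set 1387040_at, read 10.16, 10.50, 10.79, 10.69 and 10.49 in naive ganglia. At day 7 it lay between 9.72 and 10.83 with a median of 10.15, and at day 14 between 10.05 and 10.91 with a median of 10.83. At day 7, 4 of 7 arrays were below every naive array, and at day 14, 4 of 7 were above every naive array. The differences were -0.33 for day 7 against naive (-0.68 to 0.02, adjusted p = 0.603), 0.15 for day 14 against naive (-0.20 to 0.49, adjusted p = 0.649) and 0.47 for day 14 against day 7 (0.16 to 0.79, adjusted p = 0.323).

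Pllp, probe set 1386943_at, had the largest difference between day 14 and day 7 among the 8 genes. It read 9.61, 10.001, 10.17, 10.28 and 10.06 in naive ganglia, then 8.89 to 10.29 at day 7 with a median of 9.53, and 9.59 to 10.47 at day 14 with a median of 10.22. Its SD was 0.45 at day 7, 0.30 at day 14 and 0.26 in naive ganglia, and 4 of 7 day 7 arrays were below every naive array. The day 7 level was 0.742 of the naive level (log2 -0.43, -0.82 to -0.04, adjusted p = 0.538), and the day 14 level was 1.48 times that of day 7 (log2 0.57, 0.21 to 0.92, adjusted p = 0.309). Day 14 differed from naive by 0.13 (-0.26 to 0.53, adjusted p = 0.715).

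Prx, periaxin, links the outer Schwann cell membrane to the basal lamina through dystroglycan and Drp2. Probe set 1368090_at read 11.54, 11.94, 11.92, 12.14 and 11.94 in naive ganglia. It lay between 10.97 and 11.99 at day 7 with a median of 11.55, and between 11.37 and 12.22 at day 14 with a median of 12.05. The groups overlapped, with 3 of 7 day 7 arrays below the lowest naive one and 5 of 7 day 14 arrays inside the naive range. The day 7 difference from naive was -0.34 (-0.67 to -0.02, adjusted p = 0.545), and at day 14 it was 0.02 (-0.31 to 0.34, adjusted p = 0.968).

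Mag, the adhesion protein of the inner wrap that faces the axon, had the largest difference between day 7 and naive among the members. Mag was also the dimmest member, with a mean of 6.60 (log2) over all arrays, the next being Fa2h at 9.003. The lowest value on the scale was 3.48. With dim probe sets left out, Mag gave no value. Probe set 1368861_a_at read 6.49, 6.97, 7.02, 7.44 and 6.67 in naive ganglia, a spread of 0.36 (SD, n = 5). At day 7 it lay between 6.04 and 6.90 with a median of 6.43, and at day 14 between 6.35 and 6.83 with a median of 6.60. No day 14 array was above the highest day 7 array, and 4 of 7 day 7 arrays and 3 of 7 day 14 arrays were below every naive array. The day 7 level was 0.703 of the naive level (log2 -0.51, -0.82 to -0.20, adjusted p = 0.416). At day 14 it was 0.783 of it (log2 -0.35, -0.66 to -0.04, adjusted p = 0.202), and day 14 differed from day 7 by 0.15 (-0.13 to 0.44, adjusted p = 0.695).

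Fa2h, the enzyme that hydroxylates fatty acids for myelin galactolipids, read 9.004, 9.31, 9.20, 9.42 and 8.95 in naive ganglia (probe set 1393808_at). Its day 7 values were 8.49 to 9.17 with a median of 8.83, 5 of 7 being below every naive value, and its day 14 values were 8.87 to 9.31 with a median of 9.14, 5 of 7 lying inside the naive range. The differences were -0.38 for day 7 against naive (-0.60 to -0.15, adjusted p = 0.416), -0.10 for day 14 against naive (-0.33 to 0.13, adjusted p = 0.637) and 0.28 for day 14 against day 7 (0.07 to 0.49, adjusted p = 0.357).

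Bcas1, known in the brain as a protein of oligodendrocytes that are starting to myelinate and also made by Schwann cells, was the member whose day 7 group stood clear of the naive group. Probe set 1373098_at read 10.46, 10.67, 10.67, 10.62 and 10.49 in naive ganglia, and 9.60 to 10.40 at day 7 with a median of 10.27. All 7 day 7 arrays were thus below all 5 naive arrays, as 0.309% of all genes were. At day 14 it lay between 10.02 and 10.64 with a median of 10.38, and 5 of these 7 arrays were still below every naive array. The differences were -0.41 for day 7 (-0.66 to -0.16, adjusted p = 0.416) and -0.19 for day 14 (-0.44 to 0.06, adjusted p = 0.371), each against naive, and 0.21 for day 14 against day 7 (-0.01 to 0.44, adjusted p = 0.468).

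**Figure D2:**
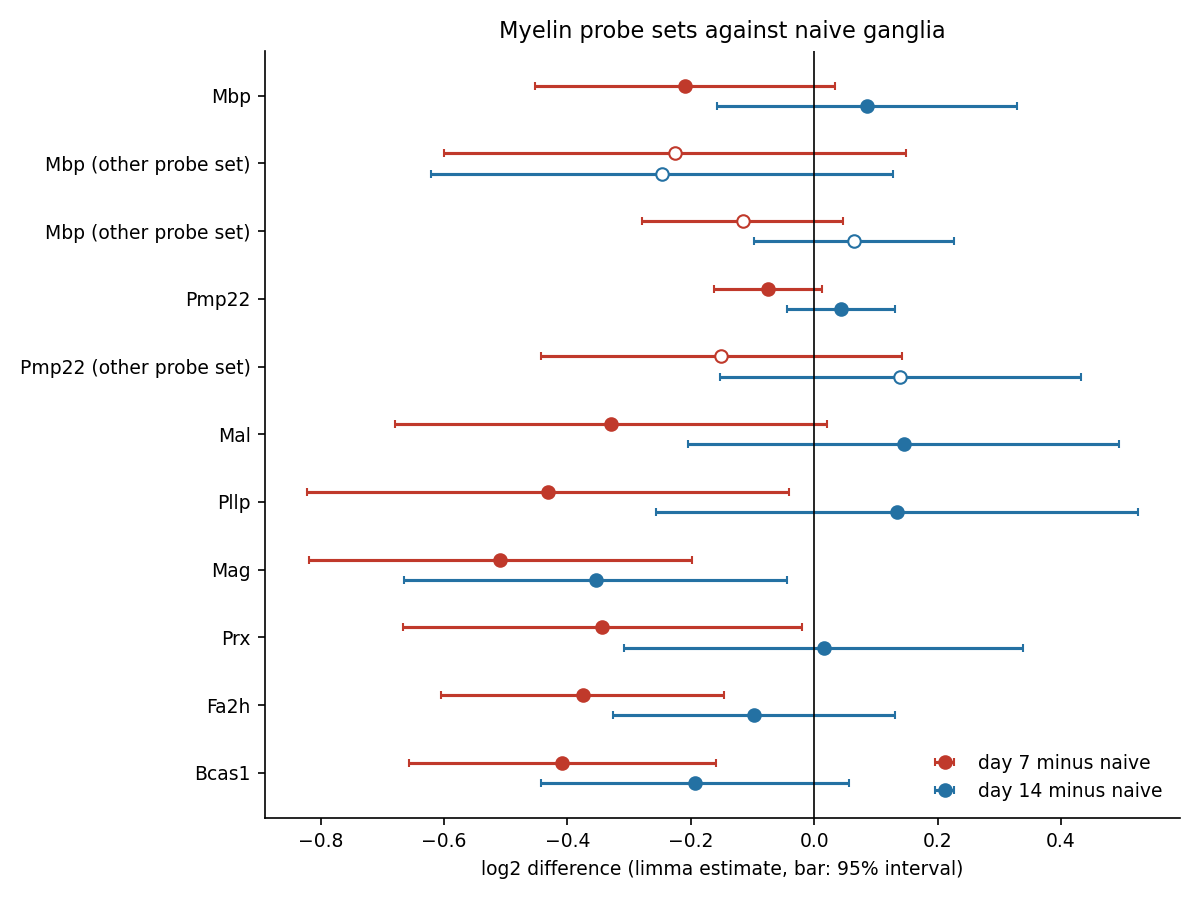
Log2 difference from naive (horizontal axis) of the 11 probe sets at day 7 and day 14, with 95% intervals from limma. Filled points are the probe set that stands for the gene, and open points are other probe sets. Day 7 points all lie left of 0, while day 14 points lie on both sides, with Mag, Bcas1, Fa2h and 1 other Mbp probe set on the left.

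By limma with Benjamini-Hochberg adjustment, 0 of 31042 probe sets (0%) passed 0.05 for day 7 against naive, 43 (0.139%) for day 14 against naive, 0 (0%) for day 14 against day 7 and 0 (0%) for day 7 against the mean of naive and day 14. The moderated F test over the 3 groups called 8 (0.0258%). None of these was a member, whose smallest adjusted p values were 0.416, 0.202, 0.309 and 0.752 in the same order of comparisons. At an unadjusted p under 0.05, 5 of 8 members were lower at day 7 than in naive ganglia, namely Mag, Bcas1, Fa2h, Pllp and Prx, where 906 of 14217 genes (6.37%) were. At day 14, 1 member, Mag, was lower than naive, where 10.2% of genes were, and this count was 0 without any 1 of day 14 replicates 2, 4 and 6 and naive replicates 2, 3 and 4. For day 14 against day 7, 6 members were higher, all but Mag and Bcas1, where 6.11% of genes were. With the contrast of day 7 against the mean of naive and day 14, all 8 were lower, with a median of -0.33, where 3.72% of genes were. These comparisons share arrays: both operated groups are set against the same 5 naive rats, and the last contrast uses all 3 groups, so they do not count as separate evidence. The members were also chosen with earlier results of these data known, so their counts beside those of all genes are a description.

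Rats of 1 group also differed from each other. Over the 8 genes, each array's mean deviation from the naive mean was -0.26 to 0.21 in naive rats, -0.74 to -0.03 at day 7 and -0.40 to 0.17 at day 14, with group means of -0.33 ± 0.22 at day 7 and -0.03 ± 0.18 at day 14 (SD, n = 7 each). All 7 day 7 arrays were below 0 on this measure, and 4 arrays of the other groups lay in the same range, day 14 replicates 4 and 6 at -0.11 and -0.40 and naive replicates 1 and 5 at -0.26 and -0.06. Day 7 replicate 6 was the lowest day 7 array for 7 of 8 genes, Mag being the exception. Day 14 replicate 6 was the lowest of its group for all 8, and naive replicate 1 the lowest naive array for 6 of 8. Without day 7 replicate 6, 3 members in place of 5 were lower at day 7 than naive at an unadjusted p under 0.05, and the median difference was -0.28. The count was also 3 without day 7 replicate 1, naive replicate 4 or naive replicate 5.

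**Figure D3:**
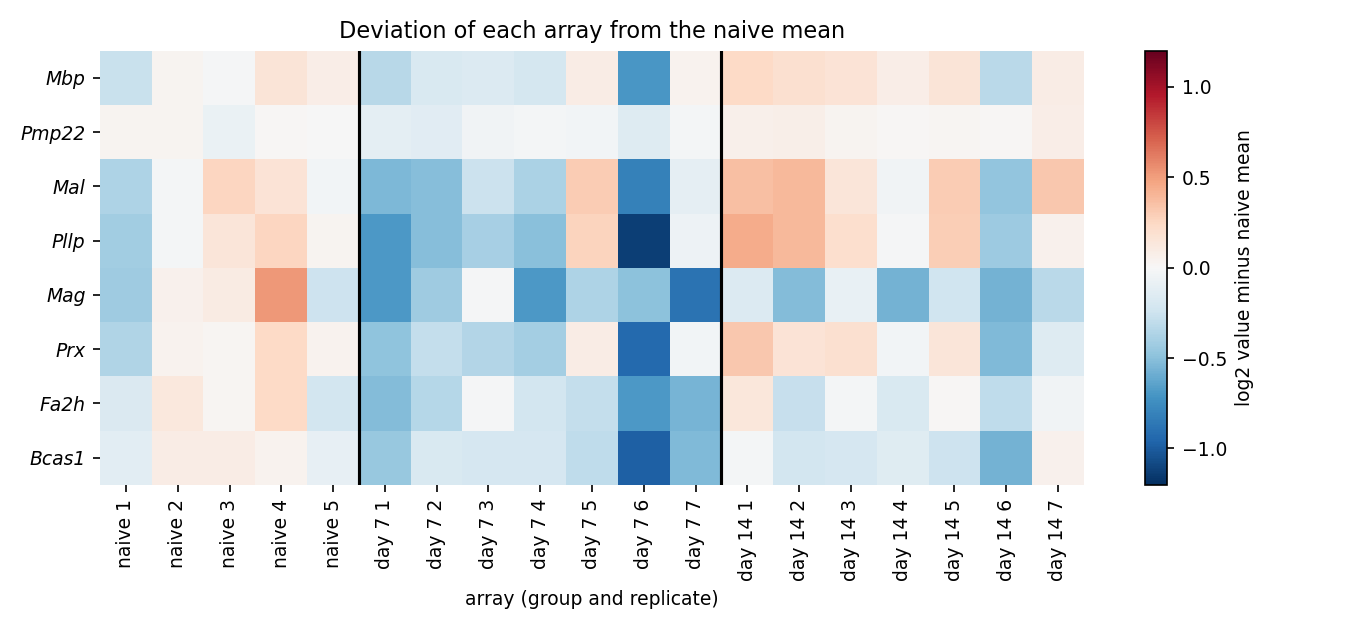
Deviation of each array's log2 value from the naive mean of the gene (colour, red above and blue below), with genes down the page and the 19 rats across, naive, day 7 and day 14 divided by lines. Day 7 replicate 6 is the deepest blue column, and day 14 replicate 6 and naive replicate 1 are blue within their groups.

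Rat codes in the labels begin with AI, AJ or AK, letters whose meaning the labels do not give. Of the day 14 rats 5 had AI and 2 AJ, of the day 7 rats 5 AJ and 2 AK, and of the naive rats 2 AJ and 3 AK, so AI occurred at day 14 alone. Within AJ, the median over members of day 7 minus naive was -0.14, with 7 of 8 lower (5 rats against 2), and within AK it was -0.58, with 8 of 8 lower (2 rats against 3). Within AJ, day 14 minus day 7 was 0.23 in the median, with 8 of 8 higher (2 rats against 5). With these letters as a block, 6 members were lower at day 7 than naive at an unadjusted p under 0.05, and 0 members passed it as higher at day 14 than at day 7, against 6 without the block. The median of day 14 minus day 7 was 0.28 with the block and 0.29 without it, and all 8 differences stayed above 0. For the return from day 7 to day 14, the group and the letters can be compared within AJ only.

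Within groups the members moved together from rat to rat. Deviations from the group means were correlated over the 19 arrays, as a description with no test. The 28 pairs had Pearson r from -0.05 to 0.97, with a median of 0.51, a median Spearman rho of 0.42 and a median r of 0.41 without day 7 replicate 6. Mbp, Pllp, Mal and Prx formed a tight set with r of 0.87 to 0.97 in all 6 pairs, Mbp with Prx having the highest. Mag, Fa2h and Bcas1 were a looser set, with r of 0.78 for Mag and Fa2h, 0.75 for Fa2h and Bcas1 and 0.36 for Mag and Bcas1. Between the 2 sets r was 0.30 to 0.68, and Pmp22 had r of -0.05 with Mag and at most 0.50 with any other member. All values on 1 array share its RNA, its amplification and its normalization.

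The sets, chosen after these values were seen and so given without a test, also differed in the return. The mean deviation of Mbp, Pllp, Mal and Prx from naive was -0.33 ± 0.34 at day 7 and 0.09 ± 0.26 at day 14, and that of Mag, Fa2h and Bcas1 was -0.43 ± 0.23 at day 7 and -0.21 ± 0.16 at day 14 (SD, n = 7 each). In all 7 day 14 rats the Mag, Fa2h and Bcas1 mean was below the mean of the other set, with differences of -0.63 to -0.04. At day 7 this difference had both signs, from -0.62 to 0.22.

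**Figure D4:**
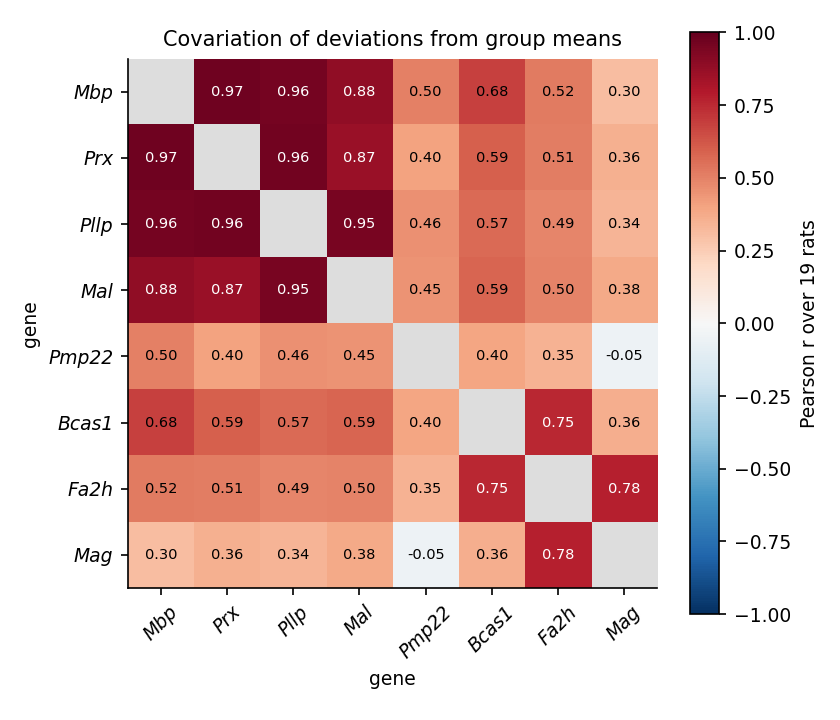
Pearson r between pairs of myelin genes over 19 rats, from deviations from the group means, with genes on both axes and r as colour and number. Mbp, Prx, Pllp and Mal form the dark block at the upper left with r of 0.87 or more, and Bcas1, Fa2h and Mag stand at the lower right.

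The 10 genes outside the set whose rat-to-rat deviations were most like the mean of the 8 members were Cldn19, Arhgap19 and Ajuba (each r = 0.89), Secisbp2l (0.86), Lims2 (0.85), Ndrg1, Sema3b and Arhgef10 (each 0.84), and Cnp and Slc12a4 (each 0.83), over 19 arrays and 14217 genes. Of them 4, Cldn19, Ndrg1, Arhgef10 and Cnp, are on the myelin lists described next. Cldn19 is a claudin of Schwann cell junctions, Ndrg1 a gene of inherited demyelinating neuropathy and Cnp an enzyme of noncompact myelin. All 10 had a lower mean at day 7 than in naive ganglia, from -0.12 for Arhgef10 to -0.37 for Ajuba, and none passed the adjusted threshold.

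Other genes of the sheath were read from lists by role, with 0 of their genes past an adjusted p of 0.05. Of 12 other myelin proteins 9 were measured, and 6 of 9 had a lower mean at day 7 than naive and 8 of 9 a higher mean at day 14 than at day 7. Cldn19 lay at -0.28 for day 7 against naive and 0.34 for day 14 against day 7, and Cryab, a small heat shock protein of myelinating Schwann cells, at -0.20 and 0.34. At an unadjusted p under 0.05, Cmtm5 was lower at day 7 (1 of 9, against 6.37% of all genes). For day 14 against day 7, Cldn19, Cryab and Cd9 were higher (3 of 9, against 6.11%) and Tspan2 was lower at -0.15 (1 of 9, against 4.43%).

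Partners of Prx at the outer membrane and basal lamina were read next. All 9 measured genes had a higher mean at day 14 than at day 7, and 7 of 9 a lower mean at day 7 than naive, with medians of 0.19 and -0.18. Dag1 and Utrn were the other two, at 0.05 and 0.003. At day 14 against naive, 4 were higher and 5 lower. Itga6, a laminin receptor chain, lay at -0.30 at day 7 (adjusted p = 0.455) and Lama2, a laminin chain of the Schwann cell basal lamina, at 0.36 for day 14 against day 7 (adjusted p = 0.283). The other Itga6 probe sets, dimmer at means of 5.93, 5.88 and 5.29 against 10.36, lay at 0.10, 0.15 and 0.07 at day 7. In the contrast of day 7 against the mean of naive and day 14, 4 of 9 were lower at an unadjusted p under 0.05, namely Drp2, Itga6, Lama2 and Lamc1, where 3.72% of all genes were. The mean of this list correlated with the members' mean over rats at r = 0.88, and that of the other myelin proteins at 0.89.

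Lipid genes had day 7 medians near 0. Of 7 measured enzymes of myelin lipids, 5 were lower at day 7 than naive, with a median of -0.04. At an unadjusted p under 0.05, 0 of 7 were lower, against 6.37% of all genes. Ugt8, which makes galactocerebroside, was the lowest at -0.24, and Cers2, a ceramide synthase, lay at -0.05. Of 17 measured genes of cholesterol and fatty acid synthesis, 6 were lower and 11 higher at day 7, with a median of 0.03. Sc5d was lower at an unadjusted p under 0.05 (-0.15, 1 of 17, against 6.37% of all genes). The other Sc5d probe sets lay at 0.22 and 0.009 at day 7. Sqle, the squalene epoxidase, lay at 0.08. The sterol list had an r of 0.003 with the members' mean over rats, against 0.61 for the lipid enzymes.

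**Figure D5:**
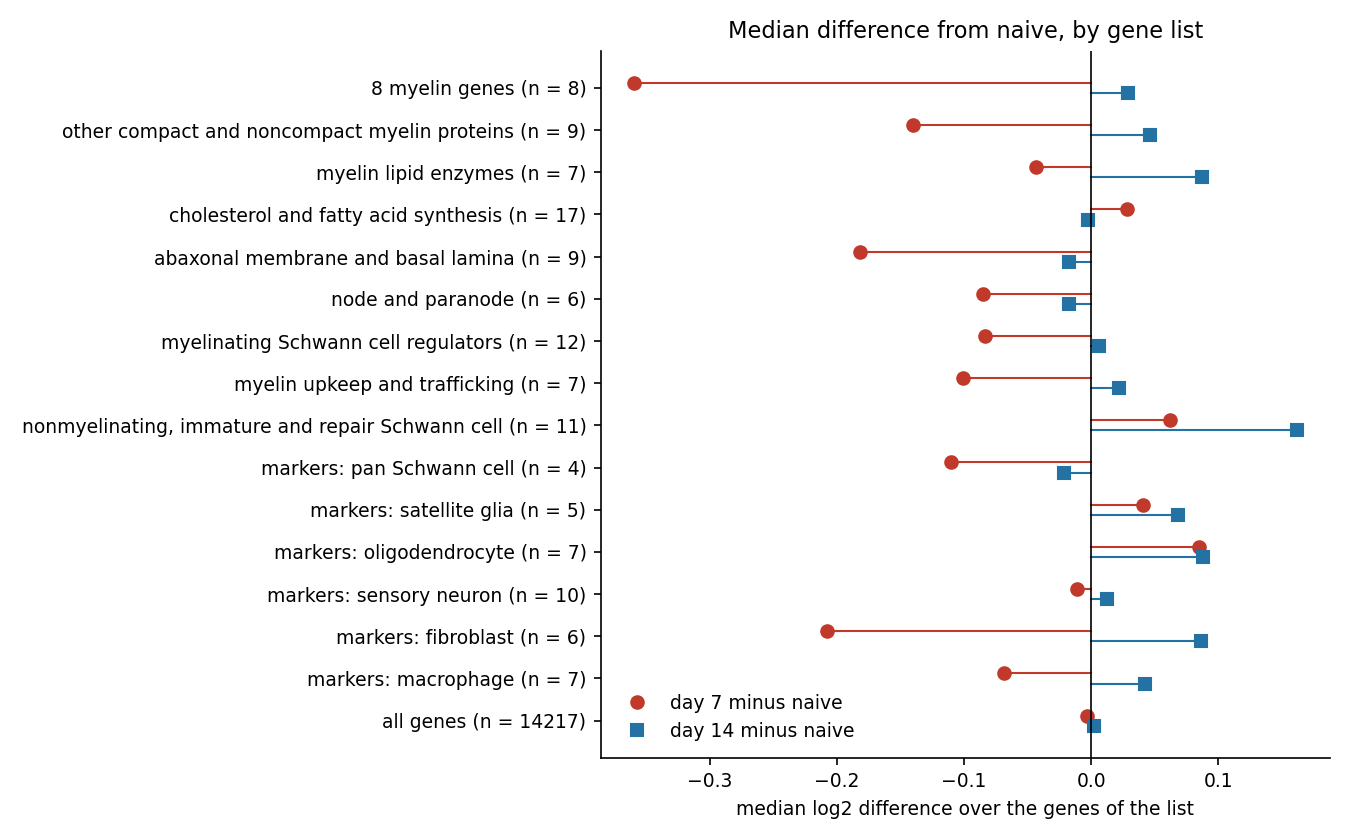
Median log2 difference from naive (horizontal axis) over the measured genes of each list drawn at day 7 (circles) and day 14 (squares), with the number of genes in brackets. The skeletal muscle and adipocyte markers, with day 14 medians of -0.52 and 0.20, are not drawn. The 8 myelin genes have a day 7 median of -0.36, further from 0 than that of any other list drawn. They were chosen with earlier results of these data known, so this rank is no separate evidence. The median over all genes lies at 0.

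Among regulators of Schwann cell myelination, 9 of 12 had a lower mean at day 7 than naive and all 12 a higher mean at day 14 than at day 7, with medians of -0.08 and 0.08. Sox10 and Nab2 were lower at day 7 at an unadjusted p under 0.05, by log2 differences of -0.31 and -0.35 (2 of 12, against 6.37% of all genes). Egr2, which drives myelin genes with Nab1 and Nab2, lay at -0.19 for day 7 against naive and 0.29 for day 14 against day 7, without an adjusted p under the threshold. Erbb2, the neuregulin co-receptor, lay at -0.24 at day 7. Of 7 genes of myelin upkeep, 4 had a lower mean at day 7 than naive and 3 a higher mean, the higher ones being Litaf (0.16), Fig4 (0.09) and Fgd4 (0.07). Ndrg1 was lower at an unadjusted p under 0.05 (-0.17, 1 of 7, against 6.37% of all genes), and Arhgef10 lay at -0.12. Of 6 measured genes of node and paranode, 4 had a lower and 2 a higher mean at day 7 than naive, with a median of -0.08. For day 14 against day 7, 3 were higher and 3 lower, with a median of -0.008. Cldn1 lay at -0.27 at day 7 and 0.42 for day 14 against day 7. Cntn1, an axonal adhesion protein, lay at 0.32 at day 7, higher at an unadjusted p under 0.05 (1 of 6, against 3.58% of all genes).

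Genes that are higher in Schwann cells without myelin mostly had higher means after surgery. Of 11 measured, 10 had a higher mean at day 7 than naive and 11 of 11 at day 14, with medians of 0.06 and 0.16. At an unadjusted p under 0.05, Jun and Olig1 were higher at day 7, where 3.58% of all genes were, and Jun, Btc, Cdh2 and Olig1 at day 14, where 9.17% of all genes were. Olig1, Gdnf and Shh had means of 4.84, 4.69 and 4.58 over all arrays, low on a scale whose lowest value was 3.48. The oligodendrocyte markers Mog and Opalin stood at 4.88 and 4.84. Jun, the transcription factor of the repair state after nerve injury that neurons also express, lay at 0.30 at day 7 and 0.39 at day 14 (adjusted p = 0.160 at day 14). Btc, a growth factor of repair Schwann cells, lay at 0.01 and 0.17, and L1cam, an adhesion protein of nonmyelinating cells, at -0.09 and 0.002. Their mean did not follow the members from rat to rat (r = -0.13).

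Markers of other cells were set beside the members. Of the fibroblast markers, 6 of 6 had a lower mean at day 7 than naive and 6 of 6 a higher mean at day 14 than at day 7, with a list mean of 11.75 to 12.02 in naive, 11.43 to 11.87 in day 7 and 11.66 to 12.17 in day 14 ganglia. Col1a1, a fibrillar collagen chain, lay at -0.48 for day 7 against naive and 0.63 for day 14 against day 7 (adjusted p = 0.406 and 0.155), and Col1a2 at -0.28 and 0.34. Over rats the fibroblast mean correlated with the members' mean at r = 0.65. Its part in the members' differences was not tested.

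Markers of Schwann cells of either kind, 4 of 6 measured, had a mean of 8.03 to 8.27 in naive, 7.82 to 8.11 in day 7 and 8.003 to 8.19 in day 14 ganglia, and an r of 0.12 with the members' mean over rats, which was 0.40 without day 7 replicate 6. S100b lay at -0.15 and Sox10 at -0.31 for day 7 against naive, both at an unadjusted p under 0.05 (2 of 4, against 6.37% of all genes). Taken singly, S100b had r of 0.48, Sox10 0.32, Erbb3 -0.19 and Foxd3 -0.55 with the members' mean. Erbb3 and Foxd3 were dim, with means of 6.11 and 4.79 (log2) over all arrays against 12.36 for S100b and 8.995 for Sox10. With the mean of this list as a covariate, 2 members in place of 5 were lower at day 7 at an unadjusted p under 0.05, and the median difference was -0.31 in place of -0.36. Satellite glia markers had r of -0.26, with Glul at -0.07 and Fabp7 at 0.17 for day 7 against naive. Of these 5 markers 4 had a higher mean at day 7 and 1 a lower mean. Adipocyte markers had r of 0.24, with Cfd at -0.22 and Adipoq at -0.18 for day 7 against naive. These were the 2 of 5 with a lower mean, the other 3 having a higher mean, and the list median was 0.01. Macrophage markers had r of 0.33, which was 0.05 without day 7 replicate 6. Of these 7 markers 5 had a lower mean at day 7 than naive, Csf1r lying at -0.10 and Ptprc at -0.25, and 2 a higher mean, Fcgr3a at 0.21 and Aif1 at 0.04.

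Skeletal muscle markers stood far above the others on 1 array of each group, with list means of 10.1 in naive replicate 1, 9.66 in day 7 replicate 7 and 8.24 in day 14 replicate 2. The muscle genes Ckm and Tnnc2 lay at 0.21 and 0.23 for day 7 against naive, with SE of 0.91 and 1.18. Of the 9 muscle markers measured, 3 had a higher mean at day 7 than naive and 6 a lower mean, with a median of -0.07. At day 14 all 9 had a lower mean than naive, with a median of -0.52. Pvalb, counted among the 9, had SD of 0.26, 0.12 and 0.21 in naive, day 7 and day 14 ganglia. Those of Tnnc2 were 2.85, 2.38 and 1.59, so Pvalb did not share its spread among rats and may not stand for muscle here. Without those 3 arrays, an alternative chosen after seeing the data, 7 members were lower at day 7 than naive at an unadjusted p under 0.05 and the median difference was -0.44. The gap between 3' and 5' control probe sets, a sign of RNA integrity and amplification, was 3.27 ± 0.08 at day 7 (SD, n = 7), 3.26 ± 0.07 at day 14 (SD, n = 7) and 3.42 ± 0.18 in naive ganglia (SD, n = 5). With this gap as a covariate, 2 members in place of 5 were lower at day 7 at an unadjusted p under 0.05, and the median difference was -0.28 in place of -0.36. Its part in the result was not tested further.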

How the data were processed

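Rat expression arrays held 1 T11 dorsal root ganglion each, from 19 rats, 5 naive, 7 at day 7 and 7 at day 14, and samples were grouped by the labels. The deposited values are log2 expression per probe set, made by the authors with RMA, which corrects background, quantile-normalizes and summarises probes, per the submitters' processing notes, which also name limma. No version of either is given. Per the labels' protocols, RNA went through 2 rounds of linear amplification, which can favour 3' ends, and quantile normalization would hide a shift of most transcripts. A further naive array that the submitters removed was not analysed here.

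Of 31099 probe sets 57 controls were left out, and 31042 were tested. Genes were named from the platform annotation, with 20826 probe sets carrying 1 symbol, 436 several and 9780 none. limma 3.58.1 in R 4.3.3 was used with lmFit and eBayes in 1 fit of 3 groups, with 4.20 prior and 16 residual degrees of freedom, Benjamini-Hochberg adjustment over all probe sets and a threshold of 0.05. The probe set with the highest mean stood for a gene. The scripts were tested on simulated data. Promoters were searched with Python 3.11.15, pandas 2.3.3 and numpy 2.4.6, and plots drawn with matplotlib 3.10.9.

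The members and lists were chosen with earlier results of these data known. Genes named were all 8 members, from each other list the 2 with the largest t for day 7 against the mean of naive and day 14, and the 10 genes most like the members over rats. Other list genes named (Cmtm5, Cd9, Tspan2, Drp2, Lamc1, Dag1, Utrn, Nab2, Egr2, Litaf, Fig4, Fgd4, Jun, Olig1, Cdh2, Gdnf, Shh, Erbb3, Foxd3, Fcgr3a, Aif1, Pvalb and the rest of the oligodendrocyte markers) were chosen after their values were seen. Of 149 listed genes 137 were measured. The 33 alternatives covered filters, normalization, moderation, weights, probe set choice, blocks, covariates and leaving out each of 19 arrays. The labels state no pairing of rats by replicate number. Same-numbered arrays deviated together at r above 0.1 in 1 of 5 pairs of day 7 and naive, 1 of 5 of day 14 and naive and 1 of 7 of day 14 and day 7. So few pairs cannot show whether the numbers share a batch.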

Additional observations from a re-analysis of the deposited data

Results flagged for a closer look

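Of 63 groups of values tested, 7 held 1 array that stood apart by Dixon's test at its 95% critical value, which chance gives in about 1 of 20 groups. Among the members, day 14 replicate 6 read 12.60 at Mbp probe set 1368810_a_at, the next lowest day 14 array reading 13.00, and 12.37 at Pmp22 probe set 1370504_a_at, the next reading 12.77. Day 7 replicate 6 read 9.60 at Bcas1, the next lowest day 7 array reading 10.05. Among marker means, sensory neuron markers stood at 12.74 in day 7 replicate 7, the next highest being 12.62. Skeletal muscle markers stood at 9.66 in day 7 replicate 7, with 7.49 next, at 8.24 in day 14 replicate 2, with 6.46 next, and at 10.14 in naive replicate 1, with 6.66 next.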

How the results depend on the processing

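No member passed an adjusted p of 0.05 under any of the 33 alternatives, and all 8 kept a lower level at day 7 than naive, and than the mean of naive and day 14, under each one that gave a value (Mag had none with dim probe sets left out). The count lower at day 7 at an unadjusted p under 0.05 (5 of 8) was 2 with the 3' minus 5' gap as a covariate and 2 with pan Schwann markers as a covariate, and 3 to 7 when 1 array was left out, with 3 without day 7 replicate 1, day 7 replicate 6, naive replicate 4 or naive replicate 5. The count higher at day 14 than at day 7 (6) was 0 with the rat code letters as a block, under which the members' median was 0.28 (0.29 without it). The medians at day 7 against naive were -0.28 and -0.31 with those 2 covariates. Mag's lower level at day 14 left 0 members with dim probe sets left out, with the replicate block, with the rat code letters and with the 3' minus 5' gap, and 0 to 2 when 1 array was left out (2 without day 7 replicate 6, and 0 without day 14 replicate 2, 4 or 6 or naive replicate 2, 3 or 4). The labels do not say that replicate numbers pair the rats. Day 14 minus naive changed sign for Mbp (-0.0324 as the mean of probe sets and -0.25 with the probe set of largest spread), Pllp (-0.0218 with the rat code letters, and -0.0134 without the arrays highest for muscle markers), Mal (-0.0744 with the rat code letters), Fa2h (0.0240 with the 3' minus 5' gap) and Prx (-0.00105 with muscle markers as a covariate, -0.0991 without the arrays highest for them, and -0.0743 to 0.11 when 1 array was left out). Day 14 minus day 7 changed sign for Mbp (-0.0215 with the probe set of largest spread) and Mag (-0.0163 with pan Schwann markers). The cause of these changes was not tested, apart from the choice of probe set. Probe sets past the adjusted threshold at day 14 against naive, 43, numbered 5 (without naive replicate 3) to 401 (without naive replicate 1) when 1 array was left out and 0 to 129 under the other alternatives.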
